A study of Mus musculus with 9 samples.

Results

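The 40 genes described here code for parts of the centriole, of the centrosome that forms around it and of the basal body that it becomes at the foot of a cilium. They were taken by name, with earlier results of these data known. Each was found by its gene symbol among the 53379 gene identifiers of the count tables. All 40 had enough reads to be tested. RNA had been sequenced from GFP-positive cells sorted from forebrains of mouse embryos (strain C57Bl6DBa2) at E16.5 (embryonic day), and the labels name these cells neural progenitors. The plasmids had been electroporated in utero 2 days earlier, at E14.5. The labels name pCAGGS-GemC1 for the first group, pCAAGS-Mcidas for the second and H2B-GFP alone for the control group, with 3 libraries in each. The protocol lets the factor plasmids be combined with the H2B-GFP reporter, and the labels of the factor groups name only the factor. The series asked how GemC1 starts the multiciliated fate. Nothing in the labels says whether the libraries of a group came from separate litters, so every p-value here speaks only of the spread among these libraries, which may be technical.

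A centriole is a short barrel of microtubules built around a cartwheel, capped at its growing end and, once mature, fitted with appendages that dock it to the membrane. A cycling cell makes 1 new centriole beside each old one, whereas a multiciliated cell makes many at once, in part on platforms called deuterosomes, and turns them into basal bodies. In the brain such cells are the ependymal cells that line the ventricles. GemC1 (made from the gene Gmnc) and Mcidas belong to the geminin family and act at the top of this programme.

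Total counts ran from 22914704 to 41163917 per library, so that a count of 0 allowed up to between 0.0729 and 0.131 CPM. That limit is 3 counts over the library total, without TMM scaling, and covers counting error only. The CPM of genes were scaled for depth with TMM factors. Gmnc stood at 277 ± 48.5 CPM in the GemC1 libraries (SD, n = 3) and was listed at 0 in every GFP library. Mcidas stood at 387, 507 and 596 CPM in Mcidas replicates 1, 2 and 3, at 70.0 ± 8.67 CPM in the GemC1 group and at 0.666 ± 0.0217 CPM in the GFP group. All 10 neural progenitor markers were detected in all groups, and the summed excitatory neuron markers were higher than the summed progenitor markers in each library. RNA of neurons was thus present beside that of progenitors. A code in the file names also separates the Mcidas libraries from the other 6. The labels do not say what it stands for, and it cannot be told apart from Mcidas itself in the comparisons that follow.

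Both factors raised a minority of the 40 genes and lowered none that passed the test. The call rested on edgeR's quasi-likelihood test, with p adjusted by Benjamini-Hochberg over the 19572 genes tested and a threshold of 0.05. Against GFP, GemC1 raised 5 of 40 genes, or 12.5%, beside 3.86% of all genes tested (756 genes, and 443 or 472 without GFP replicate 3 or 2). These were Cetn2, Poc1a, Crocc2, Alms1 and Tube1. None of the 40 was called lower, beside 1.32% of all genes. That share stands for 258 genes and rests on single libraries, with 32 genes without GFP replicate 3 and 42 without GFP replicate 2. At an unadjusted p under 0.05, 13 of the 40 were higher and 2 lower with GemC1 (10.4% and 9.03% of all genes). Mcidas raised the same 5 genes and also Kif24 and Nin, which makes 7 of 40 or 17.5%, beside 4.03% of all genes. None of the 40 was lower with Mcidas (0.327% of all genes, or 64 genes, and 29 to 99 with 1 library left out). The Mcidas count depended on the method: DESeq2 called 14, edgeR with no low-count filter 11 and a fit of the Mcidas and GFP libraries alone 11. At an unadjusted p under 0.05, 22 were higher and 0 lower with Mcidas (8.65% and 3.97% of all genes). Both comparisons share the 3 GFP libraries. In bulk RNA, a change in the number of cells that express a gene and a change in RNA per cell cannot be told apart.

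Most of the remaining genes lay a little above GFP without passing the test. With GemC1, 31 of 40 log2 fold changes were above 0 (49.9% of all genes), with a median of 0.19 beside 0.00 over all genes. With Mcidas, 37 of 40 were above 0 (45.0% of all genes), with a median of 0.29 beside -0.03. All 3 GemC1 libraries lay above all 3 GFP libraries for 11 genes (13.2% of all genes) and below them for 1, Ofd1 (11.7%). With Mcidas this was so for 21 genes above (10.7%) and 0 below (8.87%). Among the genes not called, the 95% interval of the change stayed within 2-fold for 30 of 35 with GemC1 and for 29 of 33 with Mcidas. The intervals that reached 2-fold were those of Cetn4, Spice1, Cep41, Kif24 and Nin with GemC1, and of Cetn4, Cep135, Spice1 and Cep41 with Mcidas. A change was smaller than 0.25 on the log2 scale for 22 genes with GemC1 and for 17 with Mcidas.

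**Figure D1:**
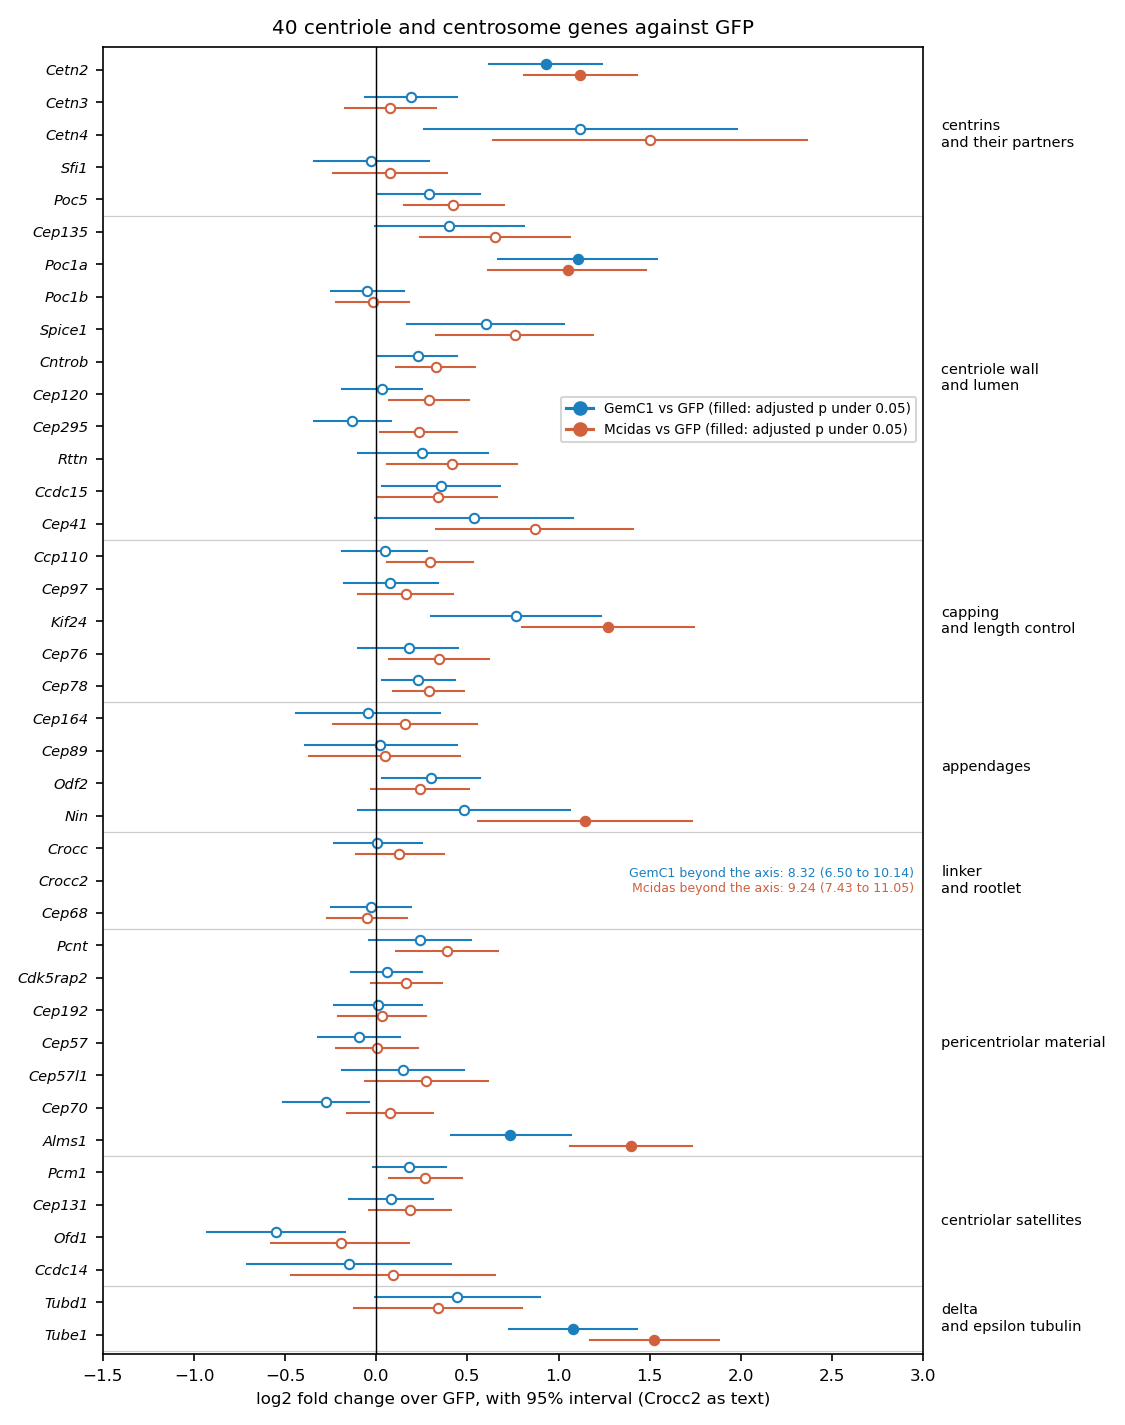
Log2 fold change over GFP of each of the 40 genes with GemC1 (blue) and Mcidas (orange), with its 95% interval and grouped by role, where filled points passed an adjusted p under 0.05. Crocc2 lies beyond the axis and is given as text, and most open points sit between 0 and 0.5.

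Promoter sequences are shown for 5 genes that were all called higher with Mcidas. With GemC1, Kif24 did not pass the test. Those of Poc1a, whose whole window held no match of any form searched, and of Nin, which has several starts, are left out. The RefSeq table (GRCm38.p6, 300 bases per start, 250 before it and 50 after) held 32 of the 40 genes. Bases that lie in no annotated exon are printed 5′ to 3′ on the gene's strand, with each CCAAT box (or its reverse ATTGG) and each E2F form in capitals. Crocc2 lies on the plus strand at chr1:93168173-93168422, Alms1 on the plus strand at chr6:85587281-85587530, Kif24 on the minus strand at chr4:41464888-41465098, Cetn2 on the minus strand at chrX:72918412-72918556 and Tube1 on the plus strand at chr10:39133915-39133975.
Crocc2: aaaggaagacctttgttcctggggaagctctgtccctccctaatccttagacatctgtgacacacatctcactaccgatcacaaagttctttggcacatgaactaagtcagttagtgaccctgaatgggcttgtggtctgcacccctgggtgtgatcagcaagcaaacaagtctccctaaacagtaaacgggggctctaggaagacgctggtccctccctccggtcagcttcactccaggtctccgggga
Alms1: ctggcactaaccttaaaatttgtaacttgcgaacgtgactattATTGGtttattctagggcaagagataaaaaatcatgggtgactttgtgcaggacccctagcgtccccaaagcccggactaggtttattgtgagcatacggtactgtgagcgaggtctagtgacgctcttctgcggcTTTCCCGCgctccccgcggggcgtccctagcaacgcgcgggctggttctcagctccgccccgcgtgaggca
Kif24: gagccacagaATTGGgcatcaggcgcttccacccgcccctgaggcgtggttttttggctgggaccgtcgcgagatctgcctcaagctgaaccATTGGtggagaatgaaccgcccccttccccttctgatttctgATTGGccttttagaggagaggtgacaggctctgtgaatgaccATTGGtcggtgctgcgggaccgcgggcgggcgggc
Cetn2: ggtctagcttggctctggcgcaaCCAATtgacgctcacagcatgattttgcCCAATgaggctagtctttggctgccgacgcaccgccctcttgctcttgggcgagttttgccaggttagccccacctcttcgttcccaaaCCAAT
Tube1: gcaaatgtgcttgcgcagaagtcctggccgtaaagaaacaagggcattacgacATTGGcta
The stretch of Kif24 held 4 CCAAT boxes and that of Crocc2 held 0. Alms1 was the 1 gene of the 32 with an E2F form, TTTCCCGC on the plus strand, 71 to 64 bases before the start. GENCODE M21 places the start of Crocc2 at 93168725 on chromosome 1, downstream of the RefSeq start used for its window.

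Matches were searched on both strands as exact letters. CCAAT, the box bound by NF-Y, was in the windows of 22 of 32 genes, or 68.8%, beside 41.1% of all 27025 genes in the table and 42.5% of those tested. It was in 5 of the 7 called genes and in 17 of the other 25. The X-box, which RFX factors bind in many ciliary promoters, was searched by the letters GTTGCC of its first part. It was in 10 of 32 genes, or 31.2%, beside 14.1% of all genes in the table and 15.1% of those tested. It was found in 3 of the 7 called genes (Cetn2, Kif24 and Crocc2) and in 7 of the other 25. Longer forms of the X-box were also searched and were in 0 of the 32 genes. They were in 0.2% of all genes in the table and 0.1% of those tested, so rare that 0 of 32 decides nothing. The longer forms were exact letters and did not cover every pair of X-box parts. In Cep41 the first part and its reverse stand close together, and this pair was not counted. The shares for the first part therefore describe those letters, and how many belong to whole X-boxes was not tested. The E2F forms TTTGGCGC, TTTCCCGC and TTTCGCGC were in 1 of 32 genes, or 3.1% (2.1% of all genes and 3.8% of those tested), and the forkhead site TGTTTAC was in 0 (4.1% of all genes). A match describes letters in this window and not a bound site.

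The GTTGCC match is shown with 12 bases on each side for the 3 called genes and, for comparison, for Crocc and Cep41, which were not called. The sequences read 5′ to 3′ on the gene's strand, with the match in capitals, as GTTGCC or as its reverse GGCAAC. Their places are chrX:72918335-72918364, minus strand (Cetn2), chr4:41464837-41464866, minus strand (Kif24), chr1:93168421-93168450, plus strand (Crocc2), chr4:141060589-141060618, minus strand (Crocc) and chr6:30693863-30693892, minus strand (Cep41).
Cetn2: tgcgagtacgccGTTGCCttaacaaccggt
Kif24: ggcgcttgtggcGTTGCCatggggatgtgg
Crocc2: gaaaccgcttcaGGCAACagtgttccttag
Crocc: cccgccttctacGTTGCCacgcctctgaac
Cep41: cgggcgtcccgcGTTGCCcttggcaaccat
The matches of Cetn2 and Kif24 lay just before the RefSeq start and that of Crocc2 just after it. Cep41 held a second match, on the other strand, which begins 3 bases after the first ends and stands in lower case. Whether the bases beside the matches of Cetn2 and Cep41 complete an X-box was not tested. Called and uncalled genes alike held the letters of the first part.

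Centrins are small calcium-binding proteins of the centriole lumen, and 1 of the 5 genes for centrins and their partners rose. Cetn2 (ENSMUSG00000031347, chromosome X, 72913532 to 72918411) stood at 42.9, 33.4 and 36.4 CPM in GFP replicates 1, 2 and 3. It stood at 70.5, 74.3 and 70.2 CPM with GemC1 and at 63.8, 97.2 and 84.0 CPM with Mcidas. Every library of either factor was above every GFP library. The log2 fold change was 0.93 ± 0.14 (SE, adjusted p = 0.00166) with GemC1 and 1.12 ± 0.14 (adjusted p = 0.000294) with Mcidas. Its relative Cetn3 stood at 126, 114 and 117 CPM in GFP, at 112, 159 and 138 CPM with GemC1 and at 127, 134 and 115 CPM with Mcidas. The 3 groups of Cetn3 overlapped, and its intervals ran from -0.06 to 0.44 and from -0.17 to 0.33 on the log2 scale. Part of the exons of Cetn3 (8.7%) also lies under an antisense gene, and reads of the 2 strands cannot be told apart in these libraries.

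Cetn4, a centrin found in ciliated cells, was scarce, with 22, 39 and 19 counts in GFP, 58, 52 and 29 with GemC1 and 54, 71 and 58 with Mcidas. Its log2 fold changes of 1.12 ± 0.40 (adjusted p = 0.135) and 1.503 ± 0.40 (adjusted p = 0.0535) were larger than those of Cetn2 but did not pass the test. The intervals ran from 0.26 to 1.98 and from 0.64 to 2.36, so both included a 2-fold change. The centrin-binding proteins Sfi1 and Poc5 were not called. Sfi1 was at -0.03 and 0.07 and Poc5 at 0.29 and 0.42 on the log2 scale with GemC1 and Mcidas. Of the exon length of Poc5, 25.7% is shared with an antisense neighbour, so its value is uncertain.

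Of the 10 genes for the centriole wall and lumen, Poc1a was the only one called. Poc1a and Poc1b code for WD40 proteins that keep centrioles stable. Poc1a (ENSMUSG00000023345, chromosome 9, 106281061 to 106350521) stood at 7.29, 7.53 and 5.99 CPM in GFP, at 13.5, 18.3 and 13.1 CPM with GemC1 and at 11.5, 13.8 and 17.8 CPM with Mcidas. No library of either factor came down to the GFP libraries. The changes were 1.11 ± 0.20 (adjusted p = 0.00623) and 1.05 ± 0.20 (adjusted p = 0.00715) on the log2 scale. Poc1b stayed at -0.05 and -0.02, with intervals from -0.25 to 0.15 and from -0.22 to 0.18, although 20.1% of its exon length is shared with a divergent noncoding gene.

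The other 8 wall genes had log2 fold changes from -0.13 to 0.60 with GemC1 and from 0.23 to 0.87 with Mcidas. Cep120, which lengthens new centrioles and is the most abundant of them per length, stood at 142, 158 and 147 CPM in GFP, at 160, 127 and 170 CPM with GemC1 and at 178, 179.5 and 189 CPM with Mcidas. Its GemC1 libraries fell on both sides of GFP and its Mcidas libraries all lay above, with an adjusted p of 0.913 and 0.198. Spice1, needed for centriole duplication, had the next largest change with GemC1 after Poc1a, 0.60 ± 0.20 (adjusted p = 0.113), and was at 0.76 ± 0.20 with Mcidas (adjusted p = 0.0534). Cep41, a protein tied to tubulin glutamylation in cilia, was at 0.54 ± 0.25 and 0.87 ± 0.25 (adjusted p = 0.261 and 0.0829). Cep135, a cartwheel protein, was at 0.40 ± 0.19 and 0.65 ± 0.19 (adjusted p = 0.273 and 0.0886). Cep295, which lets a new centriole become a centrosome, was at -0.13 ± 0.10 with GemC1 and at 0.23 ± 0.10 with Mcidas, and neither passed (adjusted p = 0.498 and 0.32). Of the exon length of Cep295, 10.9% is shared with an antisense gene, so its value is uncertain. Cntrob, Rttn and Ccdc15 were between 0.23 and 0.42 in both comparisons.

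The genes for capping and length control hold 1 called gene of 5. Kif24 is a kinesin that takes down microtubules at the centriole's growing end and works with the cap protein Ccp110. Kif24 (ENSMUSG00000028438, chromosome 4, 41390745 to 41464887) stood at 6.99, 8.52 and 8.21 CPM in GFP, at 13.0, 12.6 and 14.7 CPM with GemC1 and at 12.3, 21.7 and 23.4 CPM with Mcidas. The Mcidas libraries split, with replicate 1 just below the GemC1 libraries and the other two above them. The change passed the test with Mcidas, 1.27 ± 0.22 (adjusted p = 0.00319), and did not with GemC1, 0.77 ± 0.22 (adjusted p = 0.063). The difference between the factors was -0.51 ± 0.21 for GemC1 against Mcidas (adjusted p = 0.34), so Kif24 is not shown to differ between them. The GemC1 change was called without Mcidas replicate 1 (0.77, adjusted p = 0.00799), by DESeq2, with no low-count filter and in a fit of 2 groups (adjusted p from 0.00849 to 0.0196).

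The cap proteins themselves were not called. Ccp110 was at 0.05 ± 0.11 with GemC1 and 0.30 ± 0.11 with Mcidas, and its partner Cep97 at 0.08 ± 0.12 and 0.16 ± 0.12. Cep76, which limits reduplication, was at 0.18 and 0.34. Cep78, the most abundant uncalled gene of this role, stood at 53.1, 54.5 and 59.1 CPM in GFP, at 65.5, 68.7 and 61.2 CPM with GemC1 and at 62.9, 69.7 and 70.8 CPM with Mcidas. All 6 factor libraries of Cep78 were above GFP, by 0.23 ± 0.09 (adjusted p = 0.177) and 0.29 ± 0.09 (adjusted p = 0.124).

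Appendages anchor microtubules and dock the mature centriole. Ninein (Nin), which anchors microtubules at subdistal appendages, was the 1 of 4 that was called, and it passed with Mcidas and not with GemC1. Nin (ENSMUSG00000021068, chromosome 12, 70011435 to 70113717) stood at 12.3, 16.9 and 10.3 CPM in GFP, at 14.51, 16.2 and 24.5 CPM with GemC1 and at 18.4, 34.8 and 34.3 CPM with Mcidas. The Mcidas libraries cleared GFP, narrowly for replicate 1, and the GemC1 libraries did not. The changes were 1.14 ± 0.27 (adjusted p = 0.0291) and 0.48 ± 0.27 (adjusted p = 0.353), and the factors differed by -0.66 ± 0.27 (adjusted p = 0.317). The Nin call with Mcidas was lost without GemC1 replicate 2, Mcidas replicate 2 or 3, or GFP replicate 1 or 3 (adjusted p from 0.0501 to 0.148). It was also lost with no low-count filter (adjusted p = 0.176) and in a fit of the Mcidas and GFP libraries alone (adjusted p = 0.052).

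Odf2, needed for both kinds of appendage, stood at 155, 149 and 141 CPM in GFP, at 182, 153 and 212 CPM with GemC1 and at 149, 178 and 199 CPM with Mcidas. The groups overlapped, and the changes were 0.30 ± 0.12 and 0.24 ± 0.12 (adjusted p = 0.207 and 0.483). The distal appendage genes Cep164 and Cep89, which dock the basal body to the membrane, were at -0.04 and 0.02 with GemC1 and at 0.16 and 0.05 with Mcidas. Their intervals stayed between -0.44 and 0.55.

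The largest change of the 40 was in Crocc2, one of 3 genes for the linker and the rootlet, the fibre that anchors a basal body in the cytoplasm. Crocc2 (ENSMUSG00000084989, chromosome 1, 93168725 to 93231072) resembles Crocc, the gene for rootletin. It had 8, 6 and 0 counts in GFP replicates 1, 2 and 3, against 1248, 934 and 1580 counts with GemC1 and 1018, 3056 and 2767 with Mcidas. In CPM these are 0.235, 0.147 and 0 in GFP, 44.0, 31.6 and 51.9 with GemC1 and 29.3, 93.0 and 119.7 with Mcidas. GFP libraries were near the counting limit, and Mcidas replicate 1 was below the other 2 Mcidas libraries and below all GemC1 libraries. The log2 fold change was 8.32 ± 0.80 (adjusted p = 0.000399) with GemC1 and 9.24 ± 0.80 (adjusted p = 0.00015) with Mcidas. Because so few GFP reads set the baseline, these values depend on single libraries and ran from 7.80 to 8.98 and from 8.72 to 9.90 over the alternatives, lowest without GFP replicate 3 and highest without GFP replicate 1.

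Crocc and the linker gene Cep68 did not follow Crocc2. Crocc was at 0.01 ± 0.11 and 0.13 ± 0.11 on the log2 scale, with intervals from -0.23 to 0.25 and from -0.11 to 0.37. Cep68 stood at 81.1, 96.9 and 80.5 CPM in GFP, at 78.4, 82.1 and 92.9 CPM with GemC1 and at 81.3, 89.0 and 79.1 CPM with Mcidas. Its 3 groups overlapped. Per kb of exon, Crocc2 went from 0.0179 CPM in GFP, the lowest of the 40 genes, to 5.96 CPM with GemC1 and 11.3 CPM with Mcidas, and Crocc was at 6.46, 6.49 and 7.06 CPM. The ratio of Crocc2 to Crocc per kb was 0.905, 0.773 and 1.05 in the GemC1 libraries and 0.658, 1.68 and 2.34 in the Mcidas libraries.

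**Figure D2:**
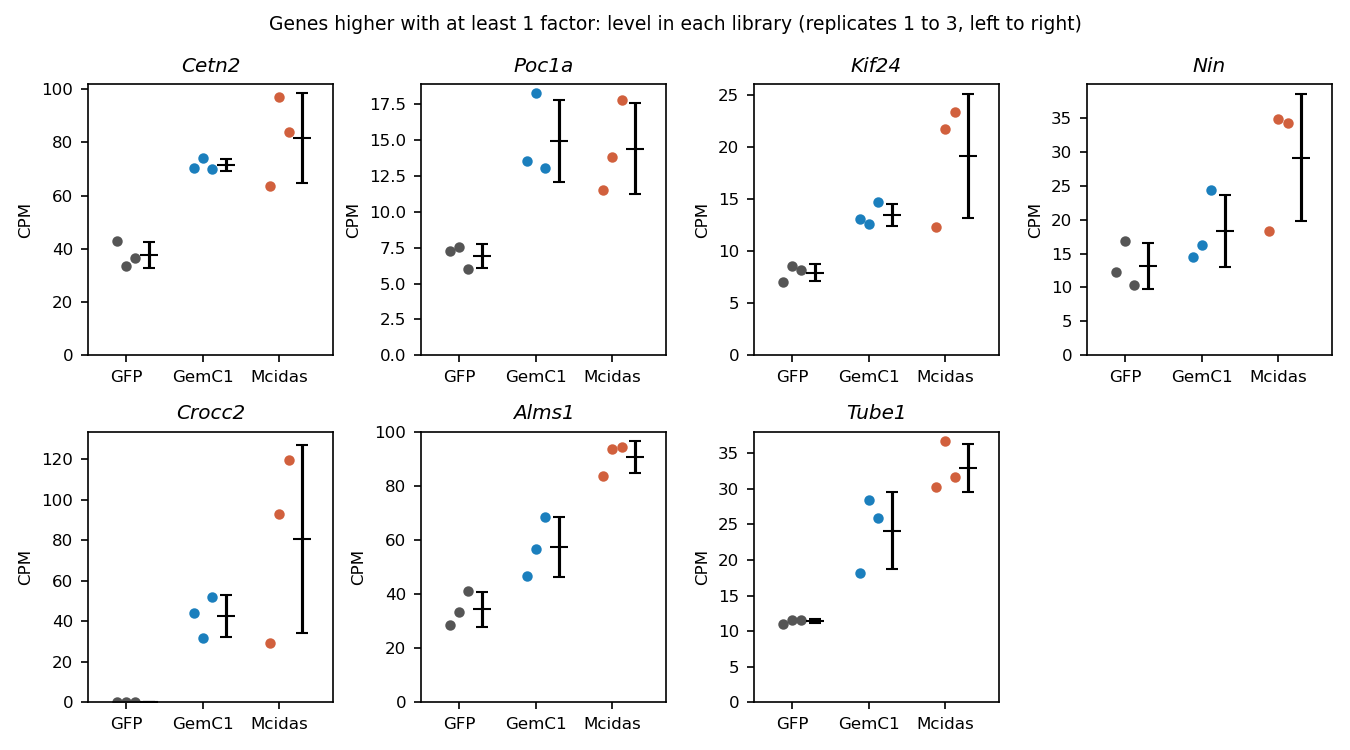
Level in CPM, by library, of the 7 genes called higher with GemC1 or Mcidas; points are replicates 1 to 3 from left to right and bars give the mean ± SD (n = 3). In each panel Mcidas replicate 1 is the lowest of the 3 Mcidas libraries, and GFP libraries of Crocc2 lie at or near 0.

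In the pericentriolar material, the protein cloud that nucleates microtubules, 1 gene of 7 was called. Alms1, mutated in Alström syndrome, codes for a protein at the base of centrioles and cilia. Alms1 (ENSMUSG00000063810, chromosome 6, 85587531 to 85702753) stood at 28.6, 33.6 and 41.3 CPM in GFP, at 46.7, 56.9 and 68.7 CPM with GemC1 and at 83.8, 93.9 and 94.4 CPM with Mcidas. The 3 groups did not overlap at all, with GFP lowest and Mcidas highest. Alms1 rose by 0.74 ± 0.15 (adjusted p = 0.0139) with GemC1 and by 1.40 ± 0.15 (adjusted p = 9.22e-05) with Mcidas. The GemC1 call was lost without GemC1 replicate 3 (0.59, adjusted p = 0.0504), GFP replicate 1 (0.62, adjusted p = 0.0516) or GFP replicate 2 (0.73, adjusted p = 0.0636). The 2 Alms1 pseudogenes on the same chromosome held between 0 and 33 counts per library.

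The scaffold genes of this material did not pass the test. Pericentrin (Pcnt) was at 0.24 ± 0.13 with GemC1 and 0.39 ± 0.13 with Mcidas, Cdk5rap2 at 0.06 and 0.17, Cep192 at 0.01 and 0.03, Cep57 at -0.09 and 0.00, and Cep57l1 at 0.15 and 0.27. Each of their intervals stayed within 2-fold, and all Mcidas libraries of Pcnt and Cep57l1 lay above GFP. With no low-count filter, Pcnt was called with Mcidas. Cep70 stood at 80.9, 94.8 and 102 CPM in GFP, at 67.2, 86.4 and 75.5 CPM with GemC1 and at 98.1, 93.7 and 100.2 CPM with Mcidas. All GemC1 libraries of Cep70 were below the GFP mean and all Mcidas libraries above it. The difference between the factors was -0.35 ± 0.11 (adjusted p = 0.221), and neither factor passed against GFP (adjusted p = 0.18 and 0.871).

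The 4 genes of the centriolar satellites, granules that carry proteins to the centrosome, gave no call. Pcm1, their scaffold, was at 0.18 ± 0.09 with GemC1 and 0.27 ± 0.09 with Mcidas (adjusted p = 0.305 and 0.181). Cep131 stood at 118, 108 and 116 CPM in GFP, at 131, 111 and 119 CPM with GemC1 and at 123, 115 and 151 CPM with Mcidas, and its groups overlapped. Ofd1, which also sits at distal centrioles, was the only gene of the 40 with all GemC1 libraries below all GFP libraries. It stood at 25.2, 22.2 and 22.7 CPM in GFP, at 14.8, 17.8 and 15.4 CPM with GemC1 and at 22.2, 24.3 and 14.45 CPM with Mcidas. The change with GemC1 was -0.55 ± 0.18 (adjusted p = 0.1), and 4 of the 15 alternatives called Ofd1 lower. Ccdc14 was at -0.15 ± 0.26 and 0.09 ± 0.26.

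Delta and epsilon tubulin, rare relatives of alpha and beta tubulin that centrioles need for their triplet microtubules, were represented by Tubd1 and Tube1. Tube1 (ENSMUSG00000019845, chromosome 10, 39133976 to 39152542) stood at 11.1, 11.6 and 11.6 CPM in GFP, at 18.1, 28.4 and 25.9 CPM with GemC1 and at 30.3, 36.7 and 31.7 CPM with Mcidas. GFP was tight, and the 3 groups of Tube1 were set apart in the order GFP, GemC1, Mcidas. Tube1 rose by 1.08 ± 0.16 (adjusted p = 0.00151) with GemC1 and by 1.53 ± 0.16 (adjusted p = 7.33e-05) with Mcidas. Ccn6 overlaps 6.1% of its exon length on the other strand, and the counts of Ccn6 were 2.51% of those of Tube1. Tubd1 stood at 7.32, 8.88 and 7.37 CPM in GFP, at 7.61, 11.7 and 12.7 CPM with GemC1 and at 8.66, 9.70 and 11.6 CPM with Mcidas. Its groups overlapped, at 0.44 ± 0.21 and 0.34 ± 0.21 (adjusted p = 0.272 and 0.596).

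**Figure D3:**
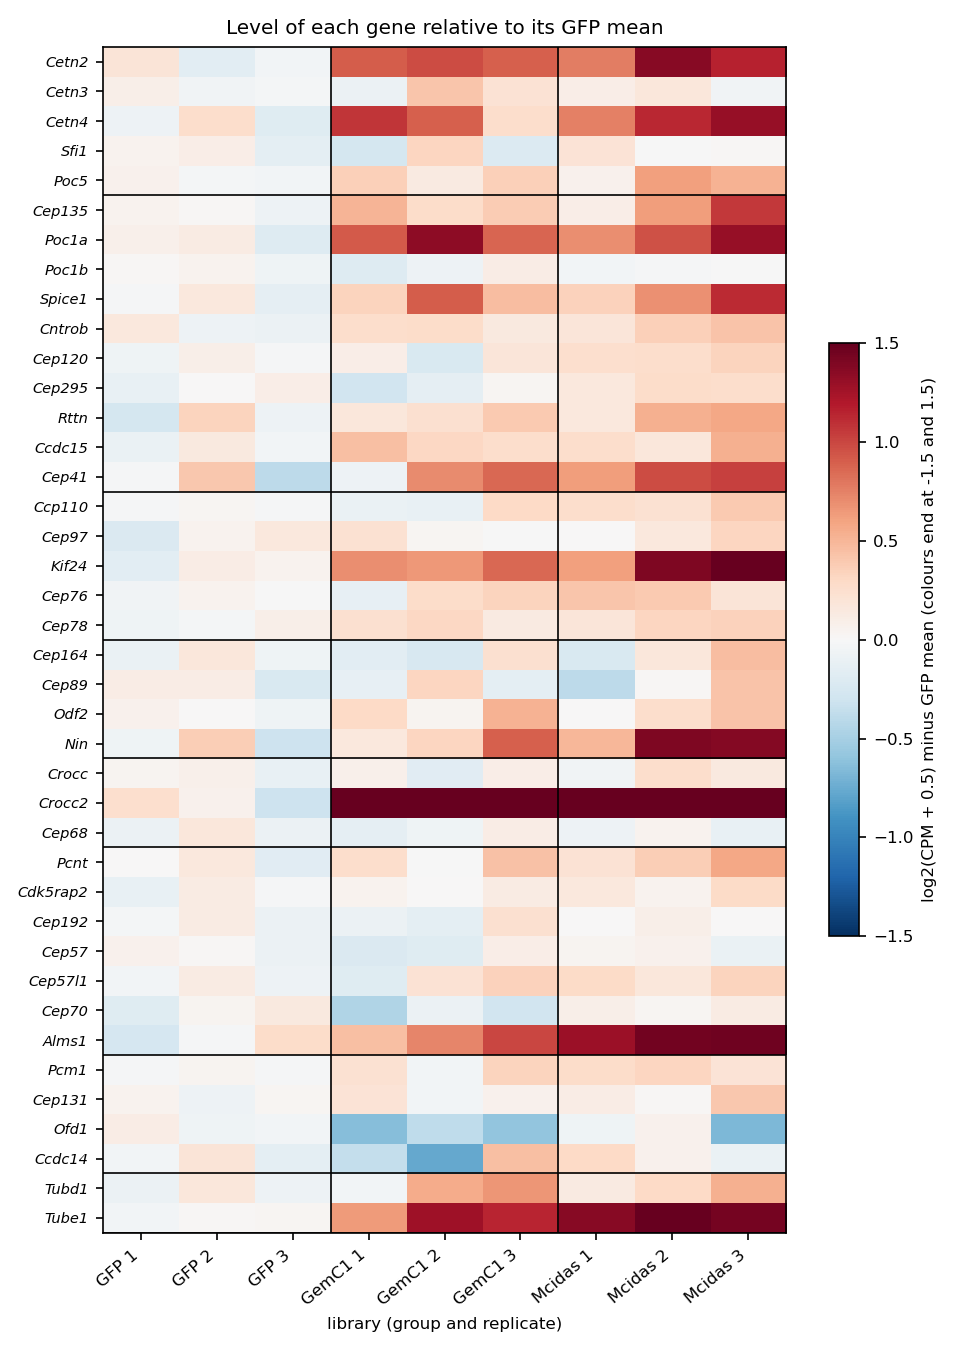
Each row is 1 of the 40 genes and each column 1 library, coloured by log2(CPM + 0.5) minus the gene's mean over the 3 GFP libraries, with colours ending at 1.5 above and below 0 and lines between roles. Crocc2, Cetn2, Poc1a, Alms1 and Tube1 are red in all 6 factor libraries, most other rows are pale, and Ofd1 is blue in the GemC1 libraries.

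In 4 pairs of related genes, 1 member rose while the other did not pass the test. The ratio of Cetn2 to Cetn3, in CPM per kb of exon, was 0.642, 0.553 and 0.591 in GFP, 1.20, 0.886 and 0.961 with GemC1 and 0.950, 1.37 and 1.38 with Mcidas. The ratio of Poc1a to Poc1b was 0.149, 0.151 and 0.131 in GFP, from 0.252 to 0.400 with GemC1 and from 0.246 to 0.372 with Mcidas. That of Tube1 to Tubd1 was 0.399, 0.345 and 0.417 in GFP, from 0.540 to 0.640 with GemC1 and from 0.724 to 0.999 with Mcidas. In these pairs and in Crocc2 to Crocc, no factor library overlapped GFP. Each comparison gave p = 0.1 in a two-sided exact permutation test, the smallest that 3 against 3 libraries (20 regroupings) can give, so none could pass 0.05. In these 4 pairs the gene called higher in the same libraries was set over its uncalled relative. The separation thus follows largely from the calls and adds no support to them. The ratio of Cep57l1 to Cep57, a pair without a call, ran from 0.150 to 0.174 in GFP, from 0.166 to 0.215 with GemC1 and from 0.175 to 0.222 with Mcidas (exact permutation p = 0.2 and 0.1).

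Levels between genes were set side by side per kb of exon, where the length is that of all annotated exons of a gene merged. The order between genes depends on that length. In GFP, Tube1 was above Tubd1 in CPM (11.4 and 7.86) and below it per kb (1.46 and 3.8). In GFP cells Cetn3 was the highest at 38.2 CPM per kb, then Cep131 at 29.7, Cetn2 at 22.8, Cep120 at 21.7 and Pcm1 at 20.9. Cetn2, Cep120 and Pcm1 differed by less than the spread of Cetn2 in GFP (SD 2.95). At the low end were Tube1 at 1.46, Kif24 at 0.987, Nin at 0.774, Cetn4 at 0.180 and Crocc2 at 0.0179 CPM per kb. With Mcidas, Cetn2 stood first at 49.6 ± 10.2 CPM per kb, above Cetn3 at 40.3 ± 3.08, a gap smaller than the SD of Cetn2. Of the 7 called genes, 6 were among the 9 lowest of the 40 in GFP, and Cetn2 was the exception. The GFP level is also the base of the fold change behind each call, and the cut at 9 follows the place of Poc1a. No rule is drawn from this order.

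**Figure D4:**
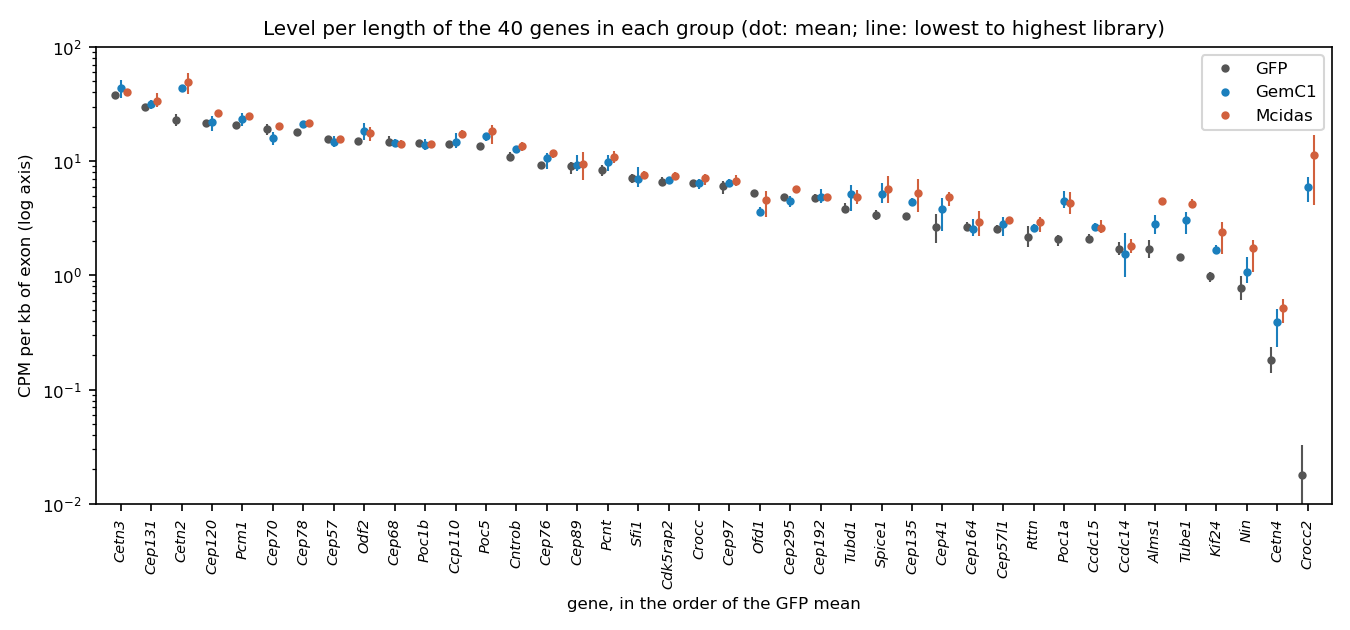
Mean CPM per kb of exon (log axis) of the 40 genes in GFP, GemC1 and Mcidas libraries, ordered by the GFP mean; lines run from the lowest to the highest of the 3 libraries. Crocc2 rises from the last place, where its lowest GFP library is 0 and is cut at the axis, while Cetn3 and Cep131 stay near the top.

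The factors were then compared with each other. GemC1 against Mcidas called 0 of the 40 genes in either direction with edgeR, beside 0.0153% of all genes higher and 0.0358% lower. At an unadjusted p under 0.05, 8 of the 40 were lower with GemC1 and 0 higher (6.67% and 6.37% of all genes). DESeq2 called Alms1 and Cep295 lower, and edgeR with no low-count filter called Alms1. The value of Cep295 is uncertain for its antisense overlap. The log2 difference was below 0 for 34 of 40 genes (50.6% of all genes), with a median of -0.14 beside 0.00. For 5 genes, Cep120, Cep295, Cep70, Alms1 and Tube1, all GemC1 libraries lay below all Mcidas libraries (7.64% of all genes), and for 0 genes they lay above (9.07%). The largest of these was Alms1 at -0.66 ± 0.15 (adjusted p = 0.138), then Tube1 at -0.45 ± 0.16 (adjusted p = 0.261). Crocc2 was at -0.92 ± 0.45, with an interval from -1.95 to 0.11 (adjusted p = 0.436). For 37 of 40 genes the interval stayed within 2-fold, the exceptions being Cetn4, Nin and Crocc2.

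Within the Mcidas group, replicate 1 was the lowest of the 3 libraries for all 7 called genes, and it also held the least Mcidas RNA. Without it, 12 of the 40 genes were called higher with Mcidas, the added ones being Cep135, Cetn4, Cntrob, Poc5 and Spice1. Mcidas replicate 3, the shallowest library, was the highest of all 9 for 19 of the 40 genes, followed by GemC1 replicate 3 for 8 and Mcidas replicate 2 for 6. These orders were not counted over all genes tested, so nothing particular to the 40 is read from them. The part of the introduced dose in them was not tested. The median difference from the GFP mean over the 40 genes was 0.13, 0.23 and 0.28 in the GemC1 libraries and 0.18, 0.27 and 0.41 in the Mcidas libraries, on the log2(CPM + 0.5) scale. In the GFP libraries it was -0.03, 0.07 and -0.07.

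Other genes of the same pathway were read from lists of related function. The shares of all genes tested that were called higher, 3.86% with GemC1 and 4.03% with Mcidas, stand beside each count. Of 11 genes for procentriole and deuterosome assembly, 6 rose with GemC1 and 6 with Mcidas, with medians of 0.97 and 0.90. Ccno, a cyclin-like factor needed for centriole amplification, went from 2.71 ± 0.828 CPM in GFP to 74.6 ± 6.45 with GemC1 and 93.8 ± 26.3 with Mcidas (adjusted p = 9.69e-07 and 4.62e-07). Cdc20b, a deuterosome-associated protein, went from 0.242 ± 0.0456 CPM to 20.1 ± 1.77 and 30.4 ± 14.2 (adjusted p = 3.14e-06 and 1.22e-06). Among 13 tested genes for other appendage and basal foot proteins, 3 rose with GemC1 and 5 with Mcidas, among them Cntrl (centriolin), by 0.47 and 0.90, and Cep128, by 1.06 and 1.48. Of 13 other wall, lumen and linker genes, 3 and 4 rose, with Wdr90 at 1.08 and 1.44 and Fam161a at 3.10 and 3.57. Of 12 other satellite genes, 3 and 4 rose, with Cep126 at 2.77 and 3.53 and Ccdc13 at 3.59 and 4.21.

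The gamma-tubulin complex and its anchors, which nucleate microtubules in every cell, gave 0 calls of 11 genes with either factor, beside the shares of all genes called higher (3.86% and 4.03%) and lower (1.32% and 0.327%). So small a list could give 0 at those shares, and nothing particular to it is read from the count. Their log2 fold changes ran from -0.33 to 0.28 with GemC1 and from -0.14 to 0.29 with Mcidas, with medians of -0.04 and -0.02. At an unadjusted p under 0.05, 0 were higher and 2 lower with GemC1 (10.4% and 9.03% of all genes). With Mcidas 1 was higher and 0 lower (8.65% and 3.97% of all genes). None of the genes in these lists was called lower with either factor.

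Markers of other cells moved beside these genes. Over all genes tested, 3.86% were higher with GemC1 and 4.03% with Mcidas, and 1.32% and 0.327% were lower. Of 10 microglial markers, 9 were higher with GemC1 and 2 with Mcidas, and their summed level was 21.3 to 31.0 CPM in GFP, 53.0 to 85.1 with GemC1 and 33.6 to 53.6 with Mcidas. Of 11 multiciliated markers, 10 were higher with each factor, and their sum went from 9.80 to 11.8 CPM in GFP to 515 to 641 with GemC1 and 821 to 1446 with Mcidas. That list includes Ccno and the introduced gene Mcidas, which alone gave 387, 507 and 596 CPM in Mcidas replicates 1, 2 and 3. Its mean in the GemC1 group was 70.0 CPM. The call of Mcidas in its own group follows from the plasmid, and the sums are not read as a difference between the factors. Of 7 choroid plexus markers, 2 had enough reads to be tested and 1 (Clic6) was higher with each factor, and their sum was at most 9.72 CPM in any library. Of 10 excitatory neuron markers, 2 were lower with GemC1 and 0 with Mcidas, and their sum was 5380 to 6315 CPM in GFP, 4405 to 4878 with GemC1 and 4677 to 5442 with Mcidas. The summed level of 10 neural progenitor markers was 1042 to 1339 CPM in GFP, 1473 to 1627 with GemC1 and 1079 to 1354 with Mcidas, so GemC1 lay above GFP. Of these markers, 1 was called, Hes5, lower with Mcidas (adjusted p = 0.0336). With GemC1, 0 of the 10 were called and 7 had a log2 fold change above 0 (49.9% of all genes), while Hes1 was at -0.75. The sum is weighted to abundant genes such as Fabp7, at a mean of 402 CPM in GFP and 578 with GemC1. The summed level of 6 intermediate progenitor markers was 1444 to 1544 CPM in GFP, 1235 to 1398 with GemC1 and 1150 to 1508 with Mcidas, so GemC1 lay below GFP. Of these, 1 was called, Neurog2, lower with GemC1 (adjusted p = 0.02). Several of the 40 genes are also used in the cell cycle. The summed level of 14 G2/M genes overlapped between groups, at 1158 to 1401 CPM in GFP, 1221 to 1480 with GemC1 and 1034 to 1482 with Mcidas. Of the 14, 1 was called, Cdk1, higher with GemC1 (adjusted p = 0.0408). The sum of 10 S phase genes was 955 to 1169 CPM in GFP, 1193 to 1276 with GemC1 and 1134 to 1303 with Mcidas, so that GemC1 lay wholly above GFP and Mcidas overlapped it. Slbp was called higher with both factors (adjusted p = 0.000518 and 4.43e-05) and Mcm3 with Mcidas (adjusted p = 0.000775). The part of these cells and phases in the changes of the 40 genes was not tested.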

How the data were processed

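The authors deposited unnormalized whole-number counts by Ensembl identifier for each of the 9 libraries. SMART-Seq v4 amplified RNA (10 ng), and Nextera XT libraries were read for 75 bp, per the labels' protocols; neither kit marks strand. Tools named, without role, in the submitters' processing notes were HTSeq 0.5.3, STAR 2.5.2b and DESeq2 1.8.1, and the build was mm10. For annotation release and strand setting, nothing was given in the sources used here. GENCODE M21 (GRCm38) matched 53274 of 53379 identifiers; the other 105 took at most 0.0676% of a library. Reads were amplified without molecular identifiers, so they do not count molecules.

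Counts were tested with edgeR 4.0.16 in R 4.3.3 (filterByExpr, minimum count 10 and minimum total 15; TMM factors from 0.96 to 1.035; robust quasi-likelihood F test, two-sided; 1 fit of all 9 libraries by group), after a check on simulated data. CPM are TMM-scaled, SE come from the F statistic, and intervals are 95%. No 2 replicates were alike within sampling noise (chi-square over its degrees of freedom, 13.0 to 23.7). The 40 genes, roles and other lists were chosen with earlier results of these data known. Library values were given for every called gene and, in each role, for the uncalled gene highest in CPM per kb; other genes were given where a result turned on them, after their values were seen. In each pathway list, the 2 called genes with the smallest adjusted p were named. Exon overlaps came from GENCODE M21. Alternatives were DESeq2 1.42.0 and its size factors in edgeR, no or a stricter (30) low-count filter, a replicate block, a fit of 2 groups, and each library left out. A planned comparison of protein sequences was not run, since no protein table was used here.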

Additional observations from a re-analysis of the deposited data

How the results depend on the processing

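Of 45 single-gene results under 15 alternatives each, 640 kept direction and side of the threshold, 10 lost the threshold and 9 gained it. The calls of Cetn2, Poc1a, Crocc2 and Tube1 held for both factors in all 15, and those of Kif24 and Alms1 for Mcidas. With Mcidas, Cep120 was called in the fit of 2 groups (adjusted p = 0.0421) and without GemC1 replicate 2 (0.0358), and Cep78 by DESeq2 (0.0415). With GemC1, genes of the 40 called lower numbered 1 (Ofd1) with DESeq2, with no low-count filter and in the fit of 2 groups, and 0 to 1 when a library was left out (1 without Mcidas replicate 3, Ofd1 again). With Mcidas, genes called higher numbered 14 with DESeq2, 11 with no filter, 11 in the fit of 2 groups and 6 to 12 with a library left out. GemC1 against Mcidas called 2 lower with DESeq2 and 1 with no filter.

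Over all genes, GemC1 against GFP gave 1159 higher with DESeq2 and 443 to 877 with a library left out, and 658 (DESeq2), 557 (no filter) and 32 to 267 (left out) lower; the lowest counts came without GFP replicate 3. Mcidas against GFP gave 112 (DESeq2), 123 (no filter) and 29 to 99 lower. GemC1 against Mcidas gave 195, 66 and 3 to 5 higher, and 304, 129 and 1 to 8 lower in the same order, with 2 lower in the fit of 2 groups. The cause was not tested.

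Over all genes tested, deviations from the group means were hardly correlated between same-numbered libraries (from -0.096 to 0.037). Pairing that touched only some genes could go unseen in such a correlation. With the replicate block, 5 and 7 of the 40 were called higher against GFP, the same genes as without it; over all genes the block gave 147 lower for GemC1 against GFP and 3 lower for GemC1 against Mcidas.

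Values near 0 changed sign in 16 cases, each with 1 library left out and none called. With GemC1 against GFP, Cep120 ran from -0.057 to 0.148 and Cep68 from -0.104 to 0.072. With Mcidas against GFP, Cep68 ran from -0.103 to 0.055 and Cep70 from -0.005 to 0.153. For GemC1 against Mcidas, Cetn3 ran from -0.013 to 0.237, Poc1a from -0.117 to 0.237, Odf2 from -0.065 to 0.164, Cep68 from -0.051 to 0.073, Cep131 from -0.183 to 0.017 and Tubd1 from -0.043 to 0.289. Depth limits Cetn4 (19 to 71 counts) and the GFP baseline of Crocc2 (0 to 8 counts).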
